A study of Homo sapiens with 12 samples.

Results

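The 8 gene names described here stand for abundant RNAs made by RNA polymerase III (Pol III): RN7SK, RN7SL1, RN7SL2, RN7SL3, RMRP, RPPH1, 7SK and 5S_rRNA. They were taken by name from the RNA-seq count table, where all 8 were found among 55765 names, and all 8 passed the filter on low counts. The table covers HEK293T cells, a human embryonic kidney line carrying a viral large T antigen. They were transfected with siRNA against ERI2, a member of the ERI1 exoribonuclease family, or with a control siRNA, in 3 libraries per group. Both groups received 50 nM siRNA, a second dose 48 hours later, and a further 72 hours of culture. A single ERI2 siRNA group was given, with no rescue, so effects of the siRNA other than loss of ERI2 cannot be told apart from it. The cell line is given as HEK293T in the sample labels and as HEK293 in the growth protocol. No label says whether replicates were separate cultures, so the spread behind each p-value may be only technical.

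RNA polymerase III makes short, stable RNAs that work inside protein particles. 7SK RNA, from RN7SK, holds the elongation kinase P-TEFb inactive together with the proteins HEXIM1, LARP7 and MEPCE. 7SL RNA, from RN7SL1 and RN7SL2 with RN7SL3 as a close copy, is the scaffold of the signal recognition particle, which docks ribosomes making secreted proteins at the endoplasmic reticulum. RMRP and RPPH1 are the RNA parts of RNase MRP, which cuts the ribosomal RNA precursor, and RNase P, which cuts the leader from transfer RNA precursors, and both enzymes share most of their proteins. 5S rRNA is a part of the large ribosomal subunit. None of these RNAs has the long poly(A) tail of messenger RNA. The labels name the TruSeq RNA kit, and the sources used here do not state how untailed RNA was kept or removed.

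RNA-seq libraries held from 29.1 to 38.3 (in units of 1e+06 counts). ERI2 itself measured 34.5, 35.7 and 32.4 CPM (counts per 1e+06 counts, on library sizes scaled by TMM) in ERI2 siRNA libraries, against 54.3, 58.2 and 54.4 CPM in control libraries, with no overlap. It fell by 0.70 on the log2 scale (edgeR adjusted p = 0.000683; adjusted p-values throughout are Benjamini-Hochberg values over all genes tested, from the quasi-likelihood test unless another tool is named). The libraries numbered 1 lay apart from the rest: on the second principal component of log2 CPM, ERI2 siRNA replicate 1 lay at 33.4 and control replicate 1 at -23.3, while the other 4 libraries lay between -7.34 and 4.95. Where leaving out both of them changed a call on a gene or list named here, the gene's value or the list's count stands with the call. That setting called 2622 genes higher and 2670 lower of 18915 tested, against 809 and 800 of 18843 with all libraries. The 8 markers of HEK293 lines summed to 808 to 957 CPM of total counts in ERI2 siRNA libraries and 1013 to 1088 CPM in control libraries, most of it VIM, and 3 of the 8 (NEFL, INA and KRT18) fell. None of the 8 passed without ERI2 siRNA replicate 2, ERI2 siRNA replicate 3 or control replicate 3, or with the replicate number as a block. With replicates 2 and 3 alone 6 passed as lower and 1 as higher. CD3E, HBB, KRT5 and COL1A2, defining markers of blood, keratinocytes and fibroblasts, were at 0 in all 6 libraries. The other fibroblast markers were present: COL1A1 lay between 7.13 and 12.3 CPM, and COL3A1 fell to 2.85 CPM on average in ERI2 siRNA cells, against 5.91 CPM in control cells (log2 fold change -1.05, edgeR adjusted p = 0.00990). With replicates 2 and 3 alone 1 fibroblast marker passed as higher and 1 as lower. The 4 blood markers summed to 0.469 to 0.613 CPM in ERI2 siRNA libraries and 0.757 to 0.897 CPM in control libraries, the 3 fibroblast markers to 11.3 to 16.3 and 12.3 to 16.0 CPM, the 2 hepatocyte markers to 0.0613 to 0.469 and 0.0332 to 0.0783 CPM, and the 2 keratinocyte markers to at most 0.123 CPM in any library. Their part in the results was not tested.

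Together the 8 names took 8.70%, 8.48% and 8.38% of all counts in ERI2 siRNA libraries, against 9.55%, 8.97% and 10.9% in control libraries. The summed share was lower in each ERI2 siRNA library than in any control library, 8.52% ± 0.165 against 9.81% ± 0.998 (SD, n = 3 each). Control replicate 3 had the highest sum, and without it the difference in means was -0.74 percentage points, against -1.29 percentage points with all libraries. RN7SK, RN7SL1, RN7SL2, RMRP and RPPH1 were the 5 names with the most counts in the whole table, in that order. RN7SL3 ranked at 23, and counts rise with a gene's length as well as with its level, so the ranks do not order molecules. The names 7SK and 5S_rRNA had at most 102 and 39 counts in any library. At these depths the Wilson 95% interval of a share was at most 0.00683 percentage points either side for any of the 6 abundant names, a figure that covers counting error only and is far smaller than the spread between replicates. A share is relative to all other RNA, and in bulk samples fewer cells of a type and less RNA per cell cannot be told apart.

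**Figure D1:**
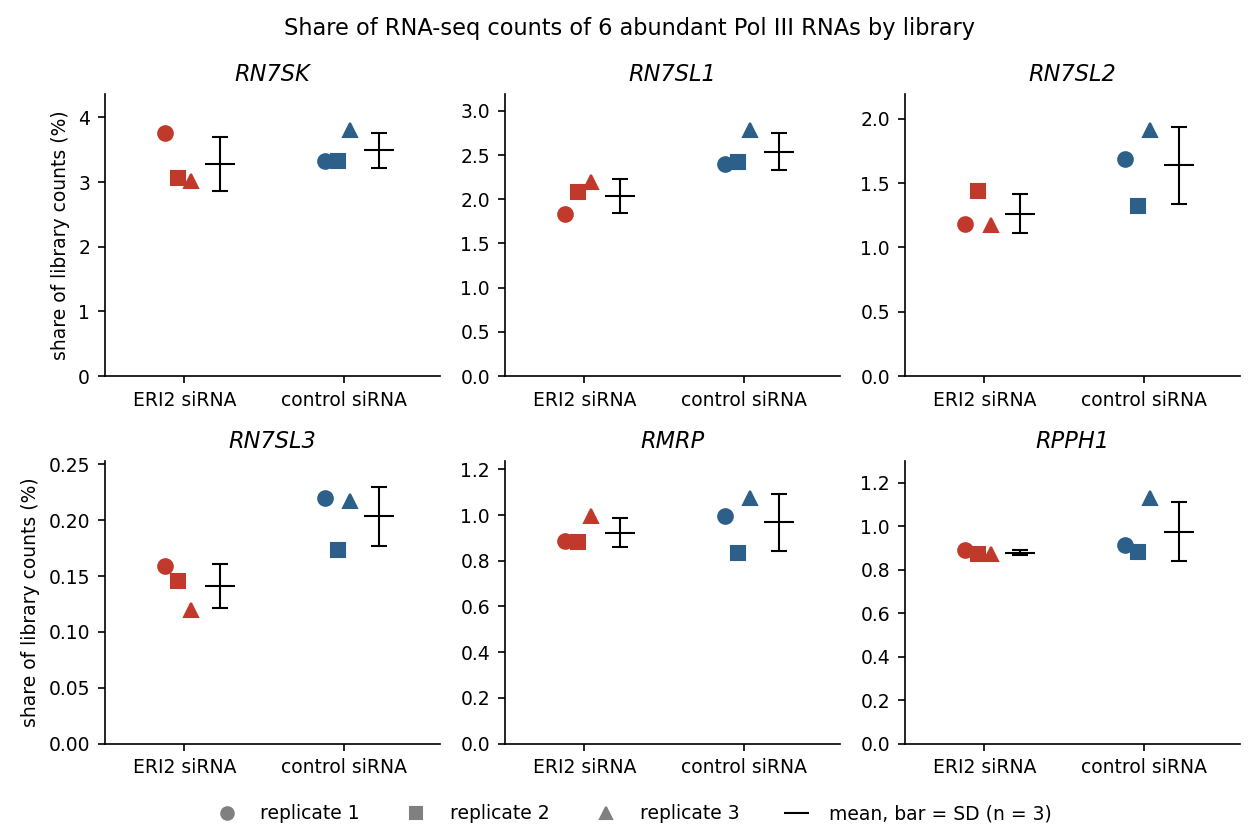
Share of all RNA-seq counts (%, y axis) for 6 abundant Pol III RNAs in ERI2 siRNA and control siRNA libraries, with each library as a point and the mean and SD (n = 3) beside them. RN7SL1 and RN7SL3 lie lower in all 3 ERI2 siRNA libraries than in any control library, while RN7SK, RN7SL2, RMRP and RPPH1 overlap.

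The 7SL RNAs were the members with the lowest values after ERI2 siRNA, and RN7SL3 was the 1 member of 8 that passed the test. Across all 18843 tested genes, 8.54% passed at an adjusted p under 0.05, 4.25% as lower and 4.29% as higher (809 higher and 800 lower, and 975 higher and 466 lower under total library size). The median log2 fold change of the 8 names was -0.18, against 0.003 over all tested genes, and 7 of the 8 values were below 0, as were 49.5% of all tested genes. Shares did not overlap between groups for 2 of the 8 names, both lower in ERI2 siRNA libraries, beside 28.5% of all tested genes, 11.3% lower and 17.2% higher. In TMM-scaled CPM the same 2 names did not overlap, beside 29.7% of all tested genes, 15.6% lower and 14.1% higher.

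RN7SL1 gave 585038, 679895 and 641044 counts in ERI2 siRNA libraries, against 828716, 929606 and 836450 in control libraries. These were shares of 1.83%, 2.08% and 2.20% against 2.40%, 2.43% and 2.78%. Each ERI2 siRNA library lay below all control libraries, but the test over all genes did not pass: the log2 fold change was -0.38 (SE 0.153; edgeR adjusted p = 0.131), and the limma-voom 95% interval ran from -0.62 to -0.14. Such intervals are not adjusted for the number of genes, and 26.5% of all tested genes had an unadjusted edgeR p under 0.05. DESeq2 called RN7SL1 lower (adjusted p = 0.000978), as did edgeR with no filter on low counts (adjusted p = 0.0410) and with replicates 2 and 3 alone (adjusted p = 0.00176 for a log2 fold change of -0.40).

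RN7SL2 held 1.18%, 1.44% and 1.17% of counts in ERI2 siRNA libraries, against 1.68%, 1.32% and 1.91% in control libraries. The groups overlapped, since control replicate 2 lay below ERI2 siRNA replicate 2. Its log2 fold change, -0.43, did not pass (SE 0.165; edgeR adjusted p = 0.112; limma-voom 95% interval -0.72 to -0.14). DESeq2 gave an adjusted p = 0.00461 and edgeR with no filter on low counts an adjusted p = 0.00992.

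RN7SL3 held 0.159%, 0.146% and 0.120% of counts in ERI2 siRNA libraries, against 0.220%, 0.173% and 0.218% in control libraries. The groups did not overlap, and its mean share was 69.4% of that in control cells. The fitted decrease passed the test, with a log2 fold change of -0.58 (SE 0.135; edgeR adjusted p = 0.0196), with 1389 ± 228 CPM in ERI2 siRNA cells and 2075 ± 255 CPM in control cells (SD, n = 3 each). The call ended without ERI2 siRNA replicate 2 (edgeR adjusted p = 0.0743), ERI2 siRNA replicate 3 (0.116) or control replicate 3 (0.0991). It also ended with the replicate number added to the fit as a block (edgeR adjusted p = 0.107). With replicates 2 and 3 alone the log2 fold change was -0.67 (edgeR adjusted p = 0.00647).

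The 3 7SL names are near-identical in sequence, and the sources used here do not state how reads matching several copies were counted, so the split among them is uncertain. Their sum does not depend on that split among the 3. Summed, they took 3.17%, 3.66% and 3.49% of counts in ERI2 siRNA libraries, against 4.31%, 3.92% and 4.91% in control libraries, so each ERI2 siRNA library lay below every control library. The summed share averaged 3.44% ± 0.252 in ERI2 siRNA cells and 4.38% ± 0.497 in control cells (SD, n = 3 each), 78.6% of the control level. Tested as a single row among all genes, the sum had a log2 fold change of -0.41 (SE 0.161) and did not pass (edgeR adjusted p = 0.124). The call was thus on the name RN7SL3 and not on the 7SL sum.

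Within the 7SL reads the composition overlapped between groups. RN7SL1 made up 57.7%, 56.8% and 63.0% in ERI2 siRNA libraries and 55.8%, 61.9% and 56.7% in control libraries. RN7SL3 made up 5.01%, 3.97% and 3.43% in ERI2 siRNA libraries and 5.11%, 4.42% and 4.43% in control libraries. ERI2 siRNA replicate 3 and control replicate 2 had the highest RN7SL1 part of their groups.

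RN7SK, the 7SK RNA gene, held 3.75%, 3.06% and 3.02% of counts in ERI2 siRNA libraries, against 3.33%, 3.33% and 3.80% in control libraries. ERI2 siRNA replicate 1 was higher than control replicates 1 and 2, while ERI2 siRNA replicates 2 and 3 were the lowest of all 6 libraries. The log2 fold change was -0.15 (SE 0.170; edgeR adjusted p = 0.624), and the limma-voom 95% interval ran from -0.43 to 0.12. With replicates 2 and 3 alone it was called lower (edgeR adjusted p = 0.00499 for a log2 fold change of -0.35), so the call turned on whether the replicate 1 libraries were used. The separate name 7SK, which the table keeps apart from RN7SK, had 102, 81 and 58 counts in ERI2 siRNA libraries and 95, 90 and 81 in control libraries. Its groups overlapped (edgeR adjusted p = 0.865 for a log2 fold change of -0.07).

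RMRP, the RNase MRP RNA, held 0.888%, 0.884% and 0.997% of counts in ERI2 siRNA libraries, against 0.997%, 0.832% and 1.08% in control libraries. The lowest and the highest library were both controls, and the log2 fold change was -0.13 (SE 0.141; edgeR adjusted p = 0.603; limma-voom 95% interval -0.36 to 0.11). RPPH1, the RNase P RNA, held 0.892%, 0.871% and 0.872% in ERI2 siRNA libraries, against 0.915%, 0.880% and 1.13% in control libraries. The ERI2 siRNA libraries were close together, and control replicate 3 was far above the other 5. The log2 fold change of RPPH1 was -0.21 (SE 0.144; edgeR adjusted p = 0.374; limma-voom 95% interval -0.45 to 0.04), and -0.08 without control replicate 3 (adjusted p = 0.807). With replicates 2 and 3 alone RPPH1 was called lower (-0.32, edgeR adjusted p = 0.0203).

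The name 5S_rRNA, which covers a gene present in many near-identical copies, had 27, 28 and 35 counts in ERI2 siRNA libraries and 39, 26 and 19 in control libraries. It was the 1 member with a value above 0 (log2 fold change 0.19, SE 0.311; edgeR adjusted p = 0.743), and its groups overlapped. Its limma-voom 95% interval, from -0.46 to 0.87, was the widest of the 8. It reached above 0.58 but not to -0.58, the value of RN7SL3, and at such low counts it sets no limit on 5S rRNA itself. Another 514 names of 5S genes and pseudogenes summed to 3.47, 4.44 and 4.43 CPM of total counts in ERI2 siRNA libraries. In control libraries that sum was 3.63, 2.64 and 2.53 CPM, and the groups overlapped. These low counts are not a measure of the level of 5S rRNA in the cells.

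**Figure D2:**
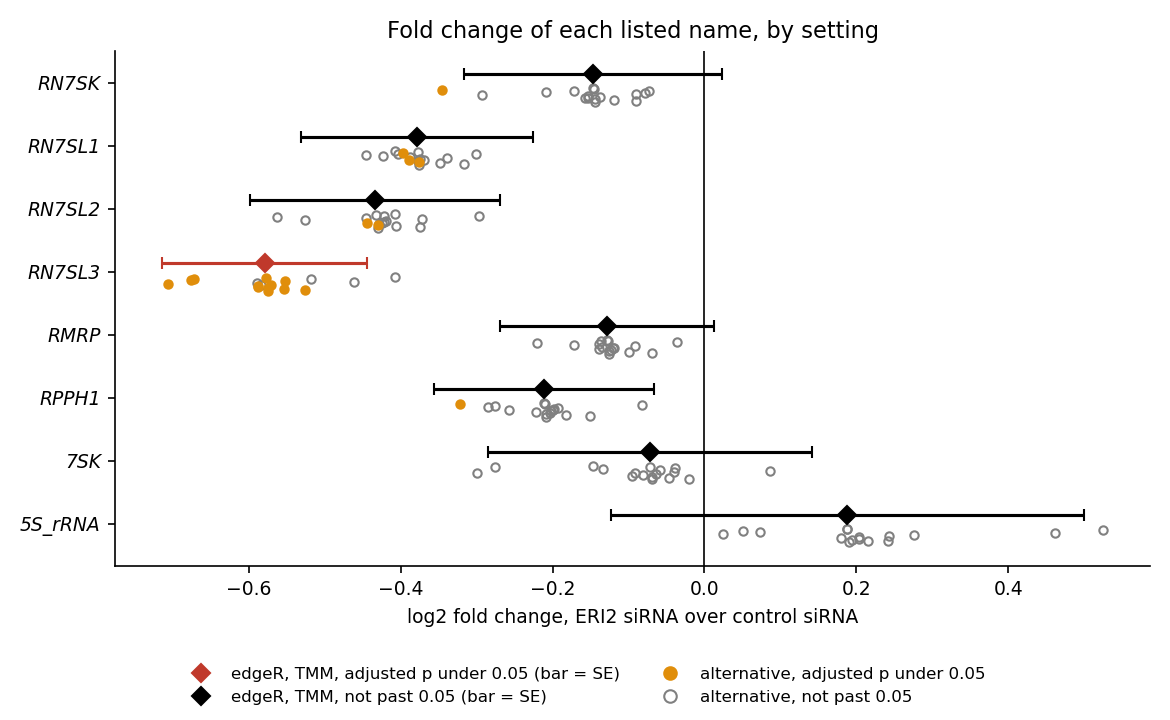
Log2 fold change of ERI2 siRNA over control siRNA (x axis) for each listed name, with the edgeR value and its SE as a diamond and each alternative setting as a small circle, filled where its adjusted p was under 0.05. The 3 7SL names lie between -0.38 and -0.58 and RN7SL3 passes, while 5S_rRNA lies at 0.19.

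Ratios between members within a library do not depend on any scaling of library sizes. The summed 7SL counts were 3.57, 4.15 and 3.50 times the RMRP counts in ERI2 siRNA libraries, against 4.32, 4.71 and 4.56 times in control libraries, with no overlap. They were 3.55, 4.21 and 4.01 times the RPPH1 counts in ERI2 siRNA libraries, against 4.71, 4.45 and 4.34 times in control libraries, again with no overlap. Against RN7SK the ratio was 0.844, 1.199 and 1.156 in ERI2 siRNA libraries and 1.29, 1.18 and 1.29 in control libraries, which overlapped. RMRP over RPPH1 was 0.996, 1.01 and 1.14 in ERI2 siRNA libraries and 1.09, 0.946 and 0.951 in control libraries, so these related enzymes' RNAs kept overlapping ratios. The ratios were chosen after the counts were seen and carry no test.

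**Figure D3:**
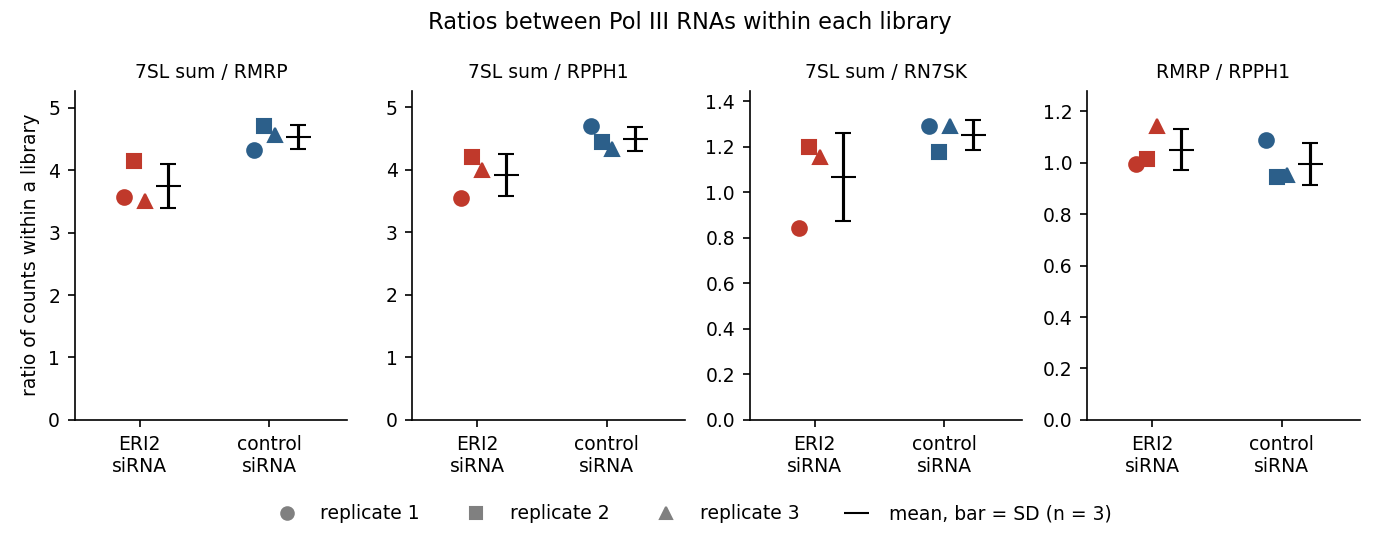
Ratios of counts within each library (y axis, no unit) for ERI2 siRNA and control siRNA libraries, with each library as a point and the mean and SD (n = 3) beside them. The summed 7SL counts over RMRP and over RPPH1 are lower in every ERI2 siRNA library than in any control library, while the ratio to RN7SK and that of RMRP to RPPH1 overlap.

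The messenger RNAs of the proteins that bind these RNAs mostly did not pass the test. None of 7 genes of the 7SK particle passed, with a median log2 fold change of 0.10. CCNT1, the cyclin of P-TEFb, measured 133 ± 11.8 CPM in ERI2 siRNA cells and 155 ± 5.59 CPM in control cells (SD, n = 3 each; log2 fold change -0.22, edgeR adjusted p = 0.0919). Its kinase CDK9 had a value of 0.18 and the 7SK-binding protein gene LARP7 one of 0.14 (adjusted p of 0.196 and 0.407 in edgeR's test). None of 8 signal recognition particle and receptor genes passed either, with a median of -0.09. SRP9, which binds the Alu domain of 7SL RNA, measured 225 ± 20.5 CPM in ERI2 siRNA cells and 277 ± 45.2 CPM in control cells (SD, n = 3 each; -0.30, edgeR adjusted p = 0.0911). SRP68 had a value of -0.18 and SRP54, the GTPase that binds signal peptides, one of -0.10. In CPM the groups did not overlap for CCNT1, SRP9 and SRP68, all lower, and for CDK9, which was higher. Those of LARP7 and SRP54 overlapped. Over all tested genes 29.7% did not overlap in CPM. Both CCNT1 (edgeR adjusted p = 0.0318) and SRP9 (0.0390) passed without ERI2 siRNA replicate 1. CCNT1 passed with replicates 2 and 3 alone (0.00465) and SRP9 with no count filter (0.00843). With replicates 2 and 3 alone 1 of the 7SK particle genes and 2 of the signal recognition particle genes passed, all lower. In that setting 2670 of 18915 tested genes over the whole table were lower too.

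Of 11 protein genes of RNase P and RNase MRP none passed (median 0.08). POP7 had the smallest p among them, 40.9 ± 2.08 CPM in ERI2 siRNA cells and 34.6 ± 2.77 CPM in control cells (SD, n = 3 each; 0.24, edgeR adjusted p = 0.0849), and it was called higher under total library size (edgeR adjusted p = 0.0297) and upper quartile scaling (0.0460). RPP14, RPP21 and RPP40 had values between 0.12 and 0.16. Of 6 genes of the 5S particle and its assembly, RRS1, which helps to load 5S RNA into the ribosome precursor, rose to 17.7 ± 0.608 CPM in ERI2 siRNA cells, against 11.9 ± 1.47 CPM in control cells (SD, n = 3 each; 0.58, edgeR adjusted p = 0.00808). With the replicate number as a block RRS1 did not pass (edgeR adjusted p = 0.0512). Its partner RPF2 (0.14) and the ribosomal protein gene RPL5 (-0.04), whose product binds 5S rRNA, did not pass. With replicates 2 and 3 alone RPL5 was called lower (log2 fold change -0.26, edgeR adjusted p = 0.00645), and the list then held 1 gene called higher and 2 called lower. Over the whole table that setting called 2622 genes higher and 2670 lower of 18915 tested.

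None of 18 subunits of Pol III passed (median 0.07), and the calls under other settings went both ways. Under total library size 3 passed, all higher, beside 975 of all 18843 tested genes. With replicates 2 and 3 alone 3 passed, all lower (median -0.02), beside 2670 of all 18915 tested genes. Without control replicate 1 CRCP passed as lower (edgeR adjusted p = 0.0380), beside 1026 of all 19299 tested genes. CRCP, a Pol III subunit, had a value of -0.23 (edgeR adjusted p = 0.0921), and -0.31 with replicates 2 and 3 alone (0.0133). The subunit genes POLR2E, POLR3C and POLR2L had values of 0.22, 0.19 and 0.23. Beside 4.29% of all tested genes, 1 of 19 factors that recruit or restrain Pol III rose. This was SNAPC4, the largest subunit of the complex that binds the upstream promoters of RN7SK, RMRP and RPPH1, which measured 48.8 ± 9.76 CPM in ERI2 siRNA cells and 33.7 ± 2.99 CPM in control cells (SD, n = 3 each; 0.53, edgeR adjusted p = 0.0195). SNAPC4 no longer passed without ERI2 siRNA replicate 2 or 3 or control replicate 2 or 3, with adjusted p from 0.0731 to 0.0937 in edgeR's test. SNAPC5 (0.28, adjusted p = 0.0748) and BRF1 (0.14, adjusted p = 0.319), a factor of 5S and transfer RNA genes, did not pass edgeR's test.

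**Figure D4:**
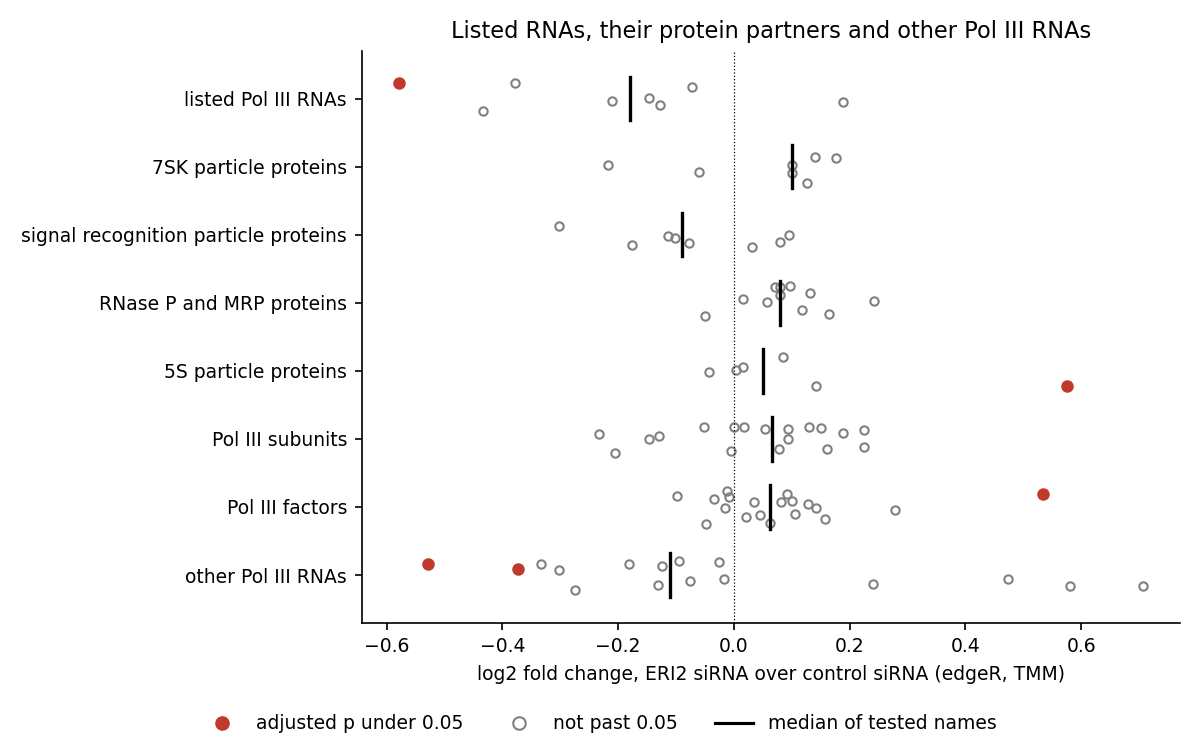
Log2 fold change of ERI2 siRNA over control siRNA (x axis) for each tested gene of 8 lists (rows), as a filled point where the adjusted p was under 0.05 and an open one otherwise, with the median of each list as a bar. Of the listed RNAs 1 passes as lower, of the other Pol III RNAs 2 pass as lower, and 1 gene passes as higher in each of the 5S particle and Pol III factor lists.

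Among 18 other Pol III RNA names, 16 were tested, 2 fell and none rose, with a median of -0.11, beside 4.25% lower and 4.29% higher over all tested genes. RNU6-1, a gene of the U6 spliceosomal RNA, fell to 14.9 ± 1.51 CPM in ERI2 siRNA cells, against 21.4 ± 3.31 CPM in control cells (SD, n = 3 each; -0.53, edgeR adjusted p = 0.0173). The vault RNA gene VTRNA1-3 fell to 48.7 ± 3.18 CPM in ERI2 siRNA cells, against 63.1 ± 7.14 CPM in control cells (SD, n = 3 each; -0.37, edgeR adjusted p = 0.0235). Both no longer passed without ERI2 siRNA replicate 2 or 3 or control replicate 2 or 3, with adjusted p from 0.0702 to 0.0794 for RNU6-1 and from 0.0781 to 0.113 for VTRNA1-3 in edgeR's test. With all libraries the other tested U6 names did not pass: RNU6-2 (-0.03), RNU6-7 (-0.30), RNU6-8 (0.24) and U6 (0.58). Nor did the other vault names VTRNA1-1 (-0.02), VTRNA1-2 (-0.08) and Vault (0.71), so each call was on a single name. How well the column purification kept such short RNAs was not tested, so these counts need not follow their levels in the cells. The name Y_RNA, which pools copies of the Ro-bound Y RNAs, had a value of 0.47 (edgeR adjusted p = 0.0517) and did not pass. It passed as higher in DESeq2 (adjusted p = 0.0111), with RLE size factors (edgeR adjusted p = 0.0496) and with no count filter (2.18e-05). It also passed without ERI2 siRNA replicate 1 (0.00778), without control replicate 1 (0.00515) and with replicates 2 and 3 alone (log2 fold change 0.79, edgeR adjusted p = 8.29e-06). The Y RNA genes under their own names went the other way: RNY1 (-0.13), RNY3 (-0.18), RNY4 (-0.27) and RNY5 (-0.33). With all libraries these genes did not pass (edgeR adjusted p from 0.430 to 0.625). Of the 18 names, 1 was higher and 4 were lower with replicates 2 and 3 alone. Of all 18915 genes tested in that setting, 2622 were higher and 2670 lower.

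Other RNAs without a poly(A) tail, which do not depend on Pol III, were measured in the same libraries. Spliceosomal and U7 RNA names summed to 3259, 4172 and 3881 CPM of total counts in ERI2 siRNA libraries, against 4124, 4630 and 5002 CPM in control libraries. That list also held the small nucleolar RNA name U3. Replication-dependent histone names summed to 12760, 10790 and 10980 CPM in ERI2 siRNA libraries, against 8922, 10050 and 11060 CPM in control libraries. Small nucleolar and Cajal body RNA names summed to 7735, 9290 and 8939 CPM in ERI2 siRNA libraries, against 7426, 8300 and 11200 CPM in control libraries. Control replicate 3, the highest library for the summed Pol III names, was also the highest for the spliceosomal and the nucleolar RNAs. All 3 sums overlapped between groups, and their part in the Pol III values was not tested. Single names within them passed, while over all tested genes 4.25% fell and 4.29% rose (466 lower and 975 higher under total library size). Of 166 tested small nucleolar and Cajal body RNAs 14 fell and 2 rose (8 lower and 1 higher under total library size, 15 lower and 12 higher with replicates 2 and 3 alone). Of 51 tested histone names 5 rose and none fell, while 13 were higher under total library size, and 4 were higher and 7 lower with replicates 2 and 3 alone. Of 15 tested names in the spliceosomal and U7 list, U3 included, RNU5E-1 (-0.59) and RNU5F-1 (-1.63), variants of the U5 RNA, fell (adjusted p of 0.0151 and 0.00516 in edgeR's test). RNU5E-1 no longer passed under total library size (edgeR adjusted p = 0.0841) or without control replicate 3 (0.0608). With replicates 2 and 3 alone 5 names of this list were lower and 1 was higher. Over all 18915 genes tested in that setting, 2670 were lower and 2622 higher.

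By RefSeq's gene order (assembly GRCh38.p14, used here only for which genes neighbour each other), the nearest protein-coding gene was GSTA4 for RN7SK, NEMF for RN7SL2 and RN7SL3, CCDC107 for RMRP and PARP2 for RPPH1, while RPS29 spans RN7SL1. GSTA4, a glutathione transferase gene, fell to 24.0 ± 2.15 CPM in ERI2 siRNA cells, against 32.2 ± 3.51 CPM in control cells (SD, n = 3 each; -0.42, edgeR adjusted p = 0.0199), and no longer passed without ERI2 siRNA replicate 2 or 3 or control replicate 2 or 3 (adjusted p from 0.0687 to 0.0961). The other 4 neighbours did not pass, with values of -0.14 for RPS29, 0.07 for NEMF, -0.18 for CCDC107 and -0.02 for PARP2, which shares a promoter region with RPPH1. RPS29 was called lower with replicates 2 and 3 alone (log2 fold change -0.24, edgeR adjusted p = 0.0138). This set of neighbours was chosen after the table had been seen.

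By the correlation of log2 CPM over the 6 libraries, the genes most like RN7SK among 10305 with a mean of at least 10 CPM were TEF, GNAI2, FBXO34, PTDSS1 and UBL7 (r from 0.972 to 0.987). Those most like RMRP were ULBP2, TLN2, TMEM205, EHMT1 and DIP2C (r from 0.964 to 0.996), and those most like the 7SL sum were SLC13A4, FAM219A, MARVELD1, DMC1 and KIAA1467 (r from 0.984 to 0.996). With 6 libraries and this many genes such values are a description of likeness only. No gene stood in more than 1 of these lists.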

How the data were processed

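RNA-seq was analysed in 6 of the 12 libraries; the miRNA libraries were not used. The authors deposited raw read counts per gene name, whole numbers with different totals per library. The build hg19 and the tools HTSeq 0.6.1p1, TopHat2 2.0.10 and CASAVA 1.8.2 are listed, with no role, per the submitters' processing notes. The sources used here do not state the annotation release, the strand setting or how multiply mapped reads were treated. RNA was purified with RNeasy columns, per the labels' protocols. Without strand, reads of overlapping genes cannot be told apart.

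The robust quasi-likelihood test of edgeR 4.0.16 (R 4.3.3; filterByExpr, then TMM scaling) ran over 18843 genes, with Benjamini-Hochberg adjustment and a threshold of 0.05, in a fit tested on simulated data. SEs are the log2 fold change over the root of its F statistic. Intervals are limma-voom's (limma 3.58.1), each for a single gene with no adjustment over genes. Shares are of total counts. The exact permutation test planned for summed shares cannot go below 0.10 with 3 against 3 and is not quoted. Alternatives were DESeq2 1.42.0, limma-voom, other scalings and filters, a replicate block, leaving out libraries, library sizes without the listed names, and near-identical names summed. Members of each list were named by smallest p, up to 4 each. The members and lists were chosen with earlier results of these data known. No sequence is shown. Replicates differed by more than counting noise (chi-square per degree of freedom at least 4.66), and 0 columns lacked a sample.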

Additional observations from a re-analysis of the deposited data

How the results depend on the processing

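Of 191 repeats of the member, summed share and call count results, 161 were kept. Members had to keep direction and side of the threshold, summed shares direction alone, and counts had to stay within 1.5 times. By the same rules 857 of 984 repeats for other genes and lists were kept. Leaving out each library in turn gave log2 fold changes from -0.29 to -0.07 for RN7SK, -0.45 to -0.30 for RN7SL1, -0.56 to -0.30 for RN7SL2, -0.71 to -0.46 for RN7SL3, -0.22 to -0.04 for RMRP, -0.29 to -0.08 for RPPH1, -0.300 to 0.087 for 7SK and 0.02 to 0.46 for 5S_rRNA. Genes called ranged from 176 to 1424 higher and 195 to 1327 lower. RN7SL3 no longer passed with the replicate number as a block (-0.58, edgeR adjusted p = 0.107) or with near-identical names summed (-0.41). RN7SL1 passed with DESeq2 (-0.38), no count filter (-0.39) and replicates 2 and 3 alone (-0.40), RN7SL2 with DESeq2 (-0.43) and no count filter (-0.44), and RN7SK (-0.35) and RPPH1 (-0.32) with replicates 2 and 3 alone; the causes were not tested.

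Against 809 genes higher and 800 lower, the block left 105 and 98, no count filter gave 1290 higher, total library size gave 975 higher and 466 lower, and replicates 2 and 3 alone gave 2622 and 2670. Same-numbered libraries did not deviate together (correlations of -0.30, -0.08 and -0.10). With 3 libraries per group this cannot settle whether the numbers pair them, and no label says so. Under the block, RRS1 (edgeR adjusted p = 0.0512), SNAPC4 (0.0903), RNU6-1 (0.0846), VTRNA1-3 (0.107), GSTA4 (0.0995) and RNU5E-1 (0.0734) no longer passed either. A block cannot alter the differences in mean summed share (-1.29 and -0.94 percentage points), so for them this repeat was no check. Genes near 0 turned sign: with replicates 2 and 3 alone LARP7 (-0.028), RPF2 (-0.018) and HEATR3 (-0.083), under total library size RPL5 (0.014) and PARP2 (0.040), and under upper quartile scaling PARP2 (0.010). Leaving out 1 library moved HEATR3 between -0.0089 and 0.135, RPL5 between -0.179 and 0.035 and PARP2 between -0.048 and 0.020. With at least 1 CPM in 3 libraries 5S_rRNA had no value, and its low counts limit what can be seen of it.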

Other observations

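Pseudogene copies of the 7SK and 7SL RNAs carried few reads. The 291 names of 7SK pseudogenes summed to 35.0, 33.3 and 37.0 CPM of total counts in ERI2 siRNA libraries, against 29.1, 22.9 and 27.3 CPM in control libraries, so that each ERI2 siRNA library lay above every control library. Only 26 of them had enough counts to be tested and none passed in edgeR, while 4 passed as higher with replicates 2 and 3 alone. The 845 names of 7SL pseudogenes summed to 157, 182 and 223 CPM in ERI2 siRNA libraries, against 176, 145 and 154 CPM in control libraries, which overlapped. Over all tested genes 4.29% were called higher and 4.25% lower in edgeR. With replicates 2 and 3 alone 2622 were higher and 2670 lower of 18915 tested. Of 108 tested 7SL pseudogene names 10 were called higher and none lower in edgeR, with a median log2 fold change of 0.52. That count was 6 higher in DESeq2, 34 higher and 1 lower with replicates 2 and 3 alone, 1 higher and 1 lower without ERI2 siRNA replicate 3, 3 higher without control replicate 2, 2 higher without control replicate 3 and 0 with the replicate block. A name with few counts that passed the count filter through 1 group had to differ, so these counts describe the tested names and not all copies. Of these names 195 and 482 had no count in any library. Reads of the parent RNAs may be counted under such names, which was not tested.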
